A study of Mus musculus with 6 samples.

Results

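Matrix metalloproteinases (MMPs), disintegrin metalloproteinases (ADAM and ADAMTS proteins) and their tissue inhibitors (TIMPs) were examined in the RNA of cultured mouse brain endothelial cells. The genes were taken by name: every gene of the count table whose symbol begins with Mmp, Adam or Adamts directly followed by a digit, and Timp1 to Timp4. This gave 79 genes of 52636 in the table, namely 33 Adam, 19 Adamts, 23 Mmp and 4 Timp genes. Of these, 52 had at least 10 counts summed over the 6 libraries (17 Adam, 11 Adamts, 20 Mmp and 4 Timp genes) and are described here. The other 27 had fewer than 10 counts, and 13 of them had 0 counts in all 6 libraries.

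The 3 libraries labelled Wild Type Control and the 3 labelled Erg and Fli1 double knockout came from endothelial cells isolated from mouse brain and grown in endothelial medium. Both groups were treated with 4-hydroxytamoxifen (4-OHT), which switches on an inducible recombinase, so the drug itself was common to controls and knockouts. Living cells negative for CD45 (a leukocyte protein) and positive for CD31 and VE-cadherin (endothelial surface proteins) were sorted before RNA isolation. The labels give neither the recombinase driver, the deleted exons and the age of the mice nor which libraries share a culture, so the p-values rest on the spread between libraries, which may in part be technical.

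MMPs are zinc-dependent proteases, secreted or held at the cell surface, that cut collagens, laminins and other matrix proteins and are made as inactive precursors. ADAMs are membrane proteins, several of which release the outer part of receptors, ligands and adhesion molecules from the cell surface, and the secreted ADAMTS proteases cut proteoglycans, procollagens and von Willebrand factor. TIMPs bind the active site of these enzymes. In brain vessels, MMPs are known for cutting basement membrane and junction proteins during angiogenesis and when the blood-brain barrier opens. The proteins of Erg and Fli1 are endothelial transcription factors of the ETS family, which bind DNA motifs that share the core GGAA.

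The promoters of 2 groups of members are shown as a description, and both groups were chosen with their values known. One group is the MMP cluster of chromosome 9, whose 8 genes with at least 10 counts were higher in 1 control library than in the other controls, some at few counts. The other is 2 ADAM genes that passed the test in opposite directions. RefSeq windows (GRCm38.p6) were matched for 33 of the 52 genes, with 37 windows in all, and motifs were searched on both strands in the 250 bases before each start. The letters TGANTCA, the AP-1 motif, were found in 6.75% of all 32851 promoter windows of the table and in 7 of the 37 member windows. Of these 7, 6 belonged to the chromosome 9 cluster, whose 8 genes with at least 10 counts had 9 windows. The last 100 bases before the start of 4 of these genes are printed with that motif in capitals, and it lay 46 bases before the start in Mmp3, 35 in Mmp13, 63 in Mmp10 and 73 in Mmp1a.

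Mmp3, chr9:7445722-7445821, plus strand: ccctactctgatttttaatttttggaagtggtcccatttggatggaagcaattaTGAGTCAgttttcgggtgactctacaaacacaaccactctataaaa
Mmp13, chr9:7272414-7272513, plus strand: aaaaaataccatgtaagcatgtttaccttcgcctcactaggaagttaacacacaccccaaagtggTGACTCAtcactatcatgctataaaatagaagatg
Mmp10, chr9:7502242-7502341, plus strand: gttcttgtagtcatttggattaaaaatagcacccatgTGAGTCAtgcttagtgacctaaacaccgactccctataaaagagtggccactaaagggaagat
Mmp1a, chr9:7464041-7464140, plus strand: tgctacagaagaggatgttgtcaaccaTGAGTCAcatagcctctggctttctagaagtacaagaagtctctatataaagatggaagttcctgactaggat

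The other genes of the cluster with this motif were Mmp1b and Mmp12, and the windows of Mmp8 and Mmp27 lacked these letters. The ETS core GGAA was in 93.4% of all windows and so separates few promoters. The longer form CCGGAA, which contains GGAA, was in 12% of all windows and in 3 member windows, those of Adam15, Adam17 and Adamts14. It is in capitals in the last 100 bases before the start of Adam15 and Adam17, where Adam17 holds it on the opposite strand as TTCCGG. Among members called in either fit, CCGGAA was in 1 of 10 windows of those called lower and 2 of 11 of those called higher. The AP-1 letters were in 2 of 10 and 2 of 11. A match of letters is a description of the window and does not show binding, and its bearing on the changes was not tested.

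Adam15, chr3:89350029-89350128, minus strand: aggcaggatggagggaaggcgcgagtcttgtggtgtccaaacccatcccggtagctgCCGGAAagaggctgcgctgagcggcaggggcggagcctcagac
Adam17, chr12:21373633-21373732, minus strand: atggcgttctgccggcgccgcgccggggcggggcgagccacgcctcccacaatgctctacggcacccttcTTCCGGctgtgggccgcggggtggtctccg

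Levels are given as CPM, the counts divided by a TMM-scaled library size and multiplied to a common total, and libraries held 17274639 to 19410458 counts. Erg had 656, 223 and 610 CPM in controls 1 to 3 and 70.2, 88.3 and 109 CPM in knockouts 1 to 3, a log2 fold change of -2.48 (SE 0.44 and edgeR adjusted p = 0.0137). Fli1, counted over the whole gene, had 82.9, 64.2 and 92.1 CPM in controls and 57.0, 68.5 and 66.7 CPM in knockouts, which did not pass the test with all libraries (edgeR adjusted p = 0.181) and did without control 2 (log2 fold change -0.48, edgeR adjusted p = 0.00346). Control 2 stood apart: chi-square per degree of freedom, computed between the counts of 2 libraries, was 212 and 193 for control 2 with its own group, 186 to 197 for control 2 with the knockouts and 6.18 for control 1 with control 3. Summed fibroblast markers reached 13181 CPM in it, while controls 1 and 3 had 420 and 1153 CPM and knockouts 1646 to 2867 CPM. Summed pericyte and smooth muscle markers reached 4301 CPM in it, 477 and 592 CPM in the other controls and 782 to 1576 CPM in knockouts. Summed endothelial markers were 14085 and 14262 CPM in controls 1 and 3, 6354 CPM in control 2 and 2522 to 3272 CPM in knockouts. In bulk RNA, fewer cells of a type and less RNA per cell cannot be told apart. The Y-linked gene Ddx3y was at 110 to 116 CPM in 3 libraries, 2 of them controls (1 and 3) and 1 a knockout (1), and Xist was at 431 to 611 CPM in the other 3, so that without control 2 both controls were male. Test results are therefore given with and without control 2.

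With all 6 libraries, 4 of the 43 members that passed the filter on low counts rose in the knockout and 6 fell. The share of all 13901 tested genes that rose was 13.1%, against 9.3% of members, and the share that fell was 11.7%, against 14% of members, both shares lying near that of all genes. Adam3, Adam9, Adam17 and Mmp9 rose, and Adam8, Adam15, Mmp1a, Mmp15, Mmp25 and Mmp28 fell. Without control 2, 21 of 44 tested members rose (47.7%, against 25.5% of 14178 genes) and 8 fell (18.2%, against 24.8% of genes), and all 10 calls of the first fit held in the same direction. The 8 that fell added Adam1a and Adam19 to the first 6, and the 17 that rose beyond the first 4 comprised 8 Mmp, 6 Adamts, 2 Timp genes and Adam11. The median log2 fold change of members was -0.43 with all libraries and 0.38 without control 2, while that of all tested genes was 0.00 in both fits.

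**Figure D1:**
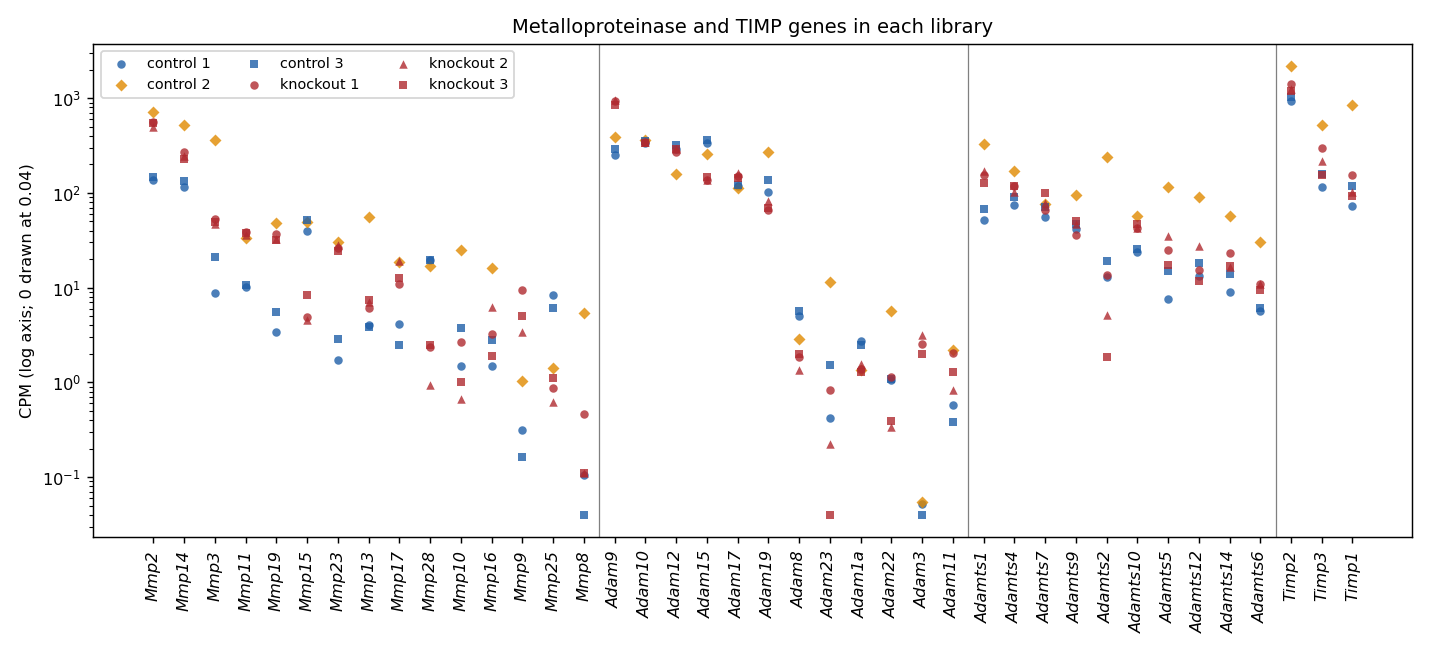
CPM (log axis) of each member with a mean of at least 1 CPM, ordered within Mmp, Adam, Adamts and Timp genes by mean level, with 1 point for each library. Control 2 (orange) lies above controls 1 and 3 (blue) for Mmp3 (364 CPM against 8.80 and 20.8) and many others, while for Mmp15 the 3 controls (39.6 to 51.5 CPM) lie together above the knockouts (red, 4.52 to 8.41 CPM).

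For most members, control 2 had the highest level among the controls. Of the 43 tested members, 33 (76.7%) were higher in control 2 than in controls 1 and 3, and 27 (62.8%) were higher there than in all 5 other libraries, against 43.8% and 23.6% of all tested genes. The median log2 ratio of control 2 to the mean of controls 1 and 3 was 2.34 for Adamts, 2.32 for Mmp, 1.94 for Timp and 0.06 for Adam genes, and 0.00 for all genes. Of the 17 members that rose once control 2 was left out, 14 had a higher level in control 2 than in every knockout library. Because leaving out control 2 favours the selection of genes high in it, this count only describes these members. Among the male libraries, the log2 ratio of knockout 1 to the mean of controls 1 and 3 (0.1 CPM added to each) was 1.96 for Mmp2, 1.80 for Adam9 and -3.18 for Mmp15. These 3 libraries also entered the fit, and the part of sex in the changes was not tested.

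**Figure D2:**
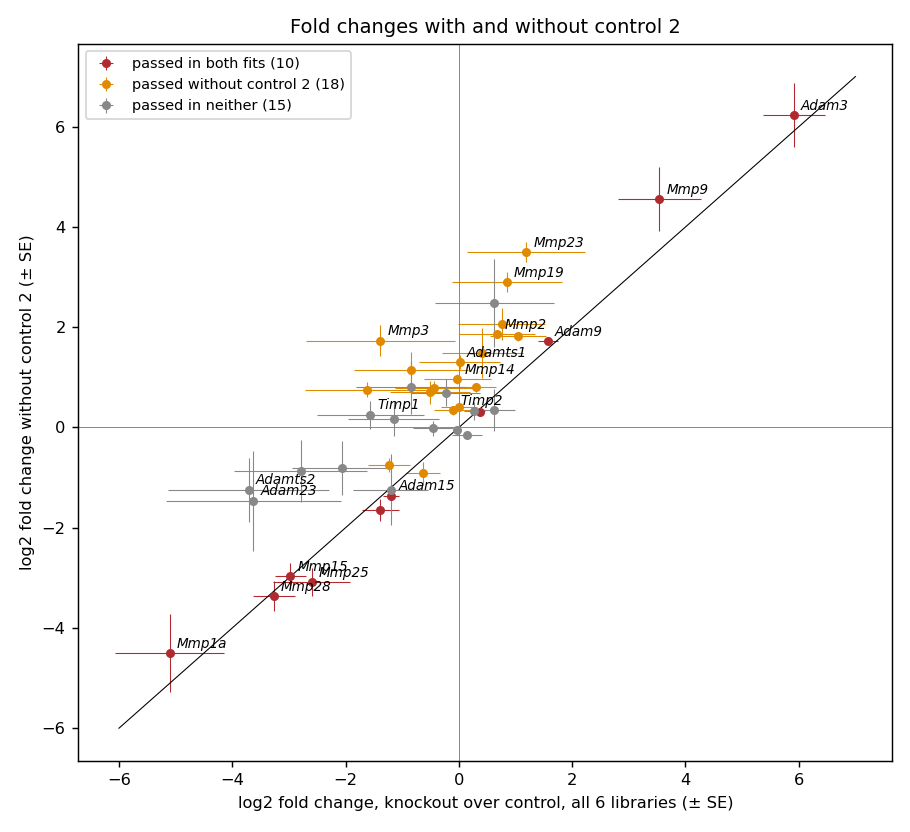
Log2 fold change of knockout over control with all 6 libraries (horizontal) and without control 2 (vertical), with SE bars, for each member tested in both fits, where the diagonal line marks equal values. Mmp15 (-2.98 and -2.97) and Adam9 (1.57 and 1.73) lie near the line, while Mmp3 moves from -1.39 to 1.73.

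Among membrane-anchored MMPs, Mmp15 and Mmp25 fell in both fits, and Mmp14, Mmp17 and Mmp23 rose without control 2 but did not pass the test with all libraries. Mmp15, a transmembrane MMP able to activate other MMPs (GRCm38 chromosome 8, 95352268 to 95375080, plus strand), had 39.6, 49.5 and 51.5 CPM in controls and 4.93, 4.52 and 8.41 CPM in knockouts. The groups did not overlap and control 2 lay between the other controls. Its log2 fold change was -2.98 (SE 0.28 and edgeR adjusted p = 0.00254), and -2.97 (SE 0.26) without control 2. Mmp25, which is held in the membrane by a lipid anchor and is best known from neutrophils, had 8.43, 1.42 and 6.03 CPM in controls and 0.874, 0.614 and 1.11 CPM in knockouts. All knockouts lay below all controls, but control 2 was close to them, and log2 fold changes were -2.60 with and -3.09 without control 2, at edgeR adjusted p = 0.0419 and 0.000141. That call was lost when any 1 library other than control 2 was left out (edgeR adjusted p up to 0.148).

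Mmp14, the main cell-surface activator of MMP2 and a collagenase, had 116, 516 and 135 CPM in controls and 272, 248 and 231 CPM in knockouts. Every knockout lay above controls 1 and 3 and below control 2, so that its log2 fold change was -0.03 with all libraries (edgeR adjusted p = 0.977) and 0.97 (SE 0.09 and edgeR adjusted p = 0.000185) without control 2. Mmp17, another lipid-anchored MMP, had 4.16, 18.7 and 2.47 CPM in controls and 10.9, 19.2 and 12.7 CPM in knockouts, with knockout 2 slightly above control 2 (log2 fold change 0.76 with and 2.06 without control 2, edgeR adjusted p = 0.511 and 0.00175). Mmp23, a small MMP that lacks the usual carboxy-terminal hemopexin domain (chromosome 4, 155650655 to 155653384, minus strand), had 1.74, 30.3 and 2.85 CPM in controls and 26.5, 28.5 and 24.5 CPM in knockouts. Control 2 was here at the level of the knockouts, and the log2 fold change was 1.19 (SE 1.05 and edgeR adjusted p = 0.449) with and 3.49 (SE 0.20 and edgeR adjusted p = 1.97e-05) without it. Mmp16, a further transmembrane member at 1.48 to 16.3 CPM, did not pass edgeR's test in either fit.

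The 2 gelatinases, which cut denatured collagen and type IV collagen, were both higher in the knockouts than in controls 1 and 3. Mmp2 (chromosome 8, 92827291 to 92853420, plus strand), the most abundant Mmp gene, had 138, 715 and 149 CPM in controls and 560.4, 491 and 549 CPM in knockouts. The knockouts stood at 74.6% of control 2, and the log2 fold change was 0.68 (SE 0.67 and edgeR adjusted p = 0.504) with all libraries and 1.86 (SE 0.08 and edgeR adjusted p = 8.12e-06) without control 2. Mmp9 had 0.316, 1.04 and 0.164 CPM in controls and 9.40, 3.40 and 5.01 CPM in knockouts, all knockouts above all controls, control 2 included. It rose in both fits, with a log2 fold change of 3.54 (SE 0.74 and edgeR adjusted p = 0.0217) and, without control 2, 4.55 (SE 0.64 and edgeR adjusted p = 0.00114). The call was lost when any 1 of the other libraries was left out, with an edgeR adjusted p of at most 0.0737. Per kilobase of exon, Mmp2 stood at 158 CPM in knockouts and Mmp9 at 1.68 CPM.

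Mmp3, Mmp10, Mmp13 and Mmp1a were each highest in control 2. Mmp3, stromelysin 1, which cuts proteoglycans and activates other MMPs, had 8.80, 364 and 20.8 CPM in controls and 53.7, 47.5 and 49.4 CPM in knockouts. The knockouts lay above controls 1 and 3 but at 13.8% of control 2, and the log2 fold change went from -1.39 (edgeR adjusted p = 0.483) to 1.73 (SE 0.31 and edgeR adjusted p = 0.00344) without control 2. Mmp13, a collagenase, had 4.06, 55.1 and 3.84 CPM in controls and 6.06, 6.97 and 7.41 CPM in knockouts, with log2 fold changes of -1.62 (edgeR adjusted p = 0.325) and 0.75 (edgeR adjusted p = 0.00585). Mmp10, stromelysin 2, ranged from 0.67 to 3.78 CPM outside control 2 and was at 25.1 CPM in it, and did not pass edgeR's test in either fit (log2 fold change -2.79 and -0.87, edgeR adjusted p = 0.140 and 0.285). DESeq2 called it lower with all libraries (log2 fold change -2.82, DESeq2 adjusted p = 0.0235). Its transcript shares 8.37% of its 50-base stretches with other genes, as do Mmp3 (8.39%) and Mmp1a (8.15%), so the split of reads between such relatives is uncertain. Mmp1a, annotated as a polymorphic pseudogene and related to the interstitial collagenase gene, had 16, 46 and 19 counts in controls and 2, 0 and 0 in knockouts. Summed counts per library size were 40.3 times higher in controls (95% interval 10.8 to 339, counting error only), or 26.0 times (6.68 to 223) without control 2, and its edgeR adjusted p was 0.0158 and 0.00302. The call was lost with any 1 knockout library left out, at an edgeR adjusted p of up to 0.0682.

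Mmp3, Mmp10, Mmp13 and Mmp1a lie with Mmp1b, Mmp8, Mmp12 and Mmp27, and with Mmp7 and Mmp20 under 10 counts, within 427.1 kb of chromosome 9 (7272514 to 7699585), the cluster whose promoters are printed above. All 8 genes with at least 10 counts were higher in control 2 than in controls 1 and 3, by 2.66 times for Mmp1a, 9.53 times for Mmp10, 13.9 times for Mmp13 and 24.6 times for Mmp3. The other 4 had few counts in controls 1, 2 and 3, namely 5, 22 and 7 for Mmp1b, 1, 12 and 2 for Mmp12, 2, 11 and 2 for Mmp27 and 2, 99 and 0 for Mmp8. Mmp8, the neutrophil collagenase and the most abundant Mmp gene that failed the filter on low counts, had 0.105, 5.39 and 0 CPM in controls and 0.463, 0.112 and 0.111 CPM in knockouts. With control 2 left out, the cluster did not move as 1 unit: Mmp3 and Mmp13 rose, Mmp1a fell and Mmp10 did not pass the test by edgeR.

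Among the remaining secreted MMPs, Mmp28 fell and Mmp11 and Mmp19 rose without control 2. Mmp28, epilysin, a secreted MMP of epithelia (chromosome 11, 83440768 to 83463071, minus strand), had 19.6, 17.0 and 19.7 CPM in controls and 2.36, 0.949 and 2.51 CPM in knockouts. The 3 controls were close to each other, and the log2 fold change was -3.27 (SE 0.37 and edgeR adjusted p = 0.00394) with and -3.36 (SE 0.30) without control 2. Exons of the opposite-strand gene 1700020L24Rik cover 12.03% of its exons, and that gene also fell, from a mean of 2.67 to 0.391 CPM. Mmp11, stromelysin 3, had 10.2, 33.7 and 10.6 CPM in controls and 38.6, 36.4 and 37.4 CPM in knockouts, the knockouts lying above every control (log2 fold change 1.05 with and 1.82 without control 2, edgeR adjusted p = 0.177 and 1.05e-05). Chchd10, whose exons on the opposite strand cover 5.58% of those of Mmp11, also rose, from a mean of 0.323 to 1.80 CPM. Mmp19, an MMP able to cut basement membrane proteins, had 3.43, 47.8 and 5.54 CPM in controls and 37.3, 32.8 and 31.9 CPM in knockouts (log2 fold change 0.85 with and 2.89 without control 2, edgeR adjusted p = 0.564 and 4.29e-05). Exons of Tmem198b and Gm47093 on the opposite strand together cover 28.3% of those of Mmp19. Tmem198b fell from a mean of 26.7 to 16.4 CPM, opposite to Mmp19, and Gm47093 had at most 0.369 CPM.

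Among ADAM genes, Adam9 rose and Adam15 fell, whereas the sheddase gene Adam10 was nearly level. Adam9, whose product can shed several membrane proteins (chromosome 8, 24949611 to 25016927, minus strand), had 252, 386 and 291 CPM in controls and 943, 959 and 856 CPM in knockouts. The groups did not overlap, and the knockouts reached 238% of control 2. Its log2 fold change was 1.57 (SE 0.17 and edgeR adjusted p = 0.00371) with all libraries and 1.73 (SE 0.08 and edgeR adjusted p = 1.23e-05) without control 2, and it passed whichever of the 6 libraries was left out. Adam15, an ADAM whose disintegrin domain holds an integrin-binding motif in humans and which is found at endothelial junctions (chromosome 3, 89338542 to 89349996, minus strand), had 340, 259 and 365 CPM in controls and 137, 137 and 146 CPM in knockouts. Exons of 4731419I09Rik cover 20.6% of its exons on the opposite strand, at 0.446 to 0.896 CPM. All knockouts of Adam15 lay below all controls, with a log2 fold change of -1.20 (SE 0.14 and edgeR adjusted p = 0.00416) with and -1.36 (SE 0.06 and edgeR adjusted p = 7.38e-06) without control 2. Its promoter and that of Adam17, both printed above, hold CCGGAA, as does that of Adamts14, and a link of these letters to the changes was not tested.

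Adam17, the sheddase of tumour necrosis factor and of many receptors, had 118, 114 and 122 CPM in controls and 151, 163 and 143 CPM in knockouts. The knockouts lay above all controls by a small margin, with a log2 fold change of 0.37 (SE 0.07 and edgeR adjusted p = 0.0153) with and 0.31 (SE 0.06 and edgeR adjusted p = 0.00566) without control 2. Leaving out control 1, control 3, knockout 1 or knockout 2 ended the call, with an edgeR adjusted p of at most 0.0644. Adam10, the main sheddase of Notch receptors and cadherins, had 340.2, 360.2 and 352 CPM in controls and 345, 343 and 339 CPM in knockouts, a log2 fold change of -0.04 (SE 0.06 and edgeR adjusted p = 0.699), so that the library values spanned 339 to 360.2 CPM. Adam12, a growth-factor sheddase, had 291, 157 and 324 CPM in controls and 272, 290.0 and 289 CPM in knockouts and did not pass edgeR's test in either fit. It was lower in control 2 than in all other libraries, unlike most members.

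Adam19, an ADAM needed for heart development in mice, had 102, 273 and 138 CPM in controls and 66.0, 82.8 and 68.9 CPM in knockouts, the knockouts below all controls. Its log2 fold change was -1.24 (SE 0.37 and edgeR adjusted p = 0.0627) with and -0.76 (SE 0.14 and edgeR adjusted p = 0.00386) without control 2. Adam8, known from leukocytes and activated endothelium, had 5.06, 2.89 and 5.65 CPM in controls and 1.85, 1.34 and 2.01 CPM in knockouts (log2 fold change -1.38 with and -1.66 without control 2, edgeR adjusted p = 0.0291 and 0.000867). With any 1 library other than control 2 left out, its edgeR adjusted p reached 0.109 at most and the call was lost. Adam1a, a sperm-related ADAM in mice, fell without control 2 from 2.74 and 2.47 CPM to 1.39, 1.56 and 1.28 CPM (control 2 had 1.36 CPM; log2 fold change -0.63 with and -0.92 without control 2, edgeR adjusted p = 0.188 and 0.0138). Its value is uncertain, because exons of other genes on the same strand, Mapkapk5 among them, cover 63.7% of its exons.

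Adam3, a sperm-surface ADAM required for fertilisation in mice, rose from at most 1 count per library in controls to at least 36 in knockouts. It had 1, 1 and 0 counts in controls and 49, 57 and 36 counts in knockouts. Summed counts per library size were 71.3 times higher in knockouts (95% interval 19.38 to 595), or 95.5 times (16.9 to 3799) against controls 1 and 3, with an edgeR adjusted p of 0.00247 and 0.000256. The gene remained low, at 0.873 CPM per kilobase in knockouts against 223 for Adam9, its neighbour in a cluster of 5 Adam genes within 414.7 kb of chromosome 8 (24602246 to 25016927), all on the minus strand. Adam5 and Adam32, which lie between them, had at most 1.04 CPM in any library and did not pass edgeR's test in either fit. Adam11, a catalytically inactive ADAM of neurons, rose without control 2 from 0.580 and 0.384 CPM to 2.06, 0.837 and 1.28 CPM, while control 2 had 2.18 CPM (log2 fold change 0.41 with and 1.49 without control 2, edgeR adjusted p = 0.709 and 0.0430). Adam22 and Adam23, also inactive ADAMs of neurons, reached 5.72 and 11.4 CPM in control 2 and at most 1.54 CPM elsewhere. Adam33, the most abundant Adam gene below the filter on low counts, had 3.00 CPM in control 2 and 0.211 to 0.334 CPM elsewhere.

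All 11 Adamts genes were higher in control 2 than in controls 1 and 3, and 0 of the 10 tested were called with all libraries by edgeR (1 was lower at an unadjusted p under 0.05) or by DESeq2, which gave Adamts2 no adjusted p. Without control 2, 6 of the 10 rose and 0 fell, against 25.5% and 24.8% of all genes. Adamts1, a versican- and aggrecan-cutting protease with anti-angiogenic activity, was the most abundant Adamts gene by mean CPM over all libraries, though not in controls 1 and 3, where Adamts4 and Adamts7 were higher. It had 52.4, 328 and 66.9 CPM in controls and 153, 170.4 and 128 CPM in knockouts. The knockouts lay between controls 1 and 3 and control 2, and the log2 fold change was 0.02 (SE 0.72 and edgeR adjusted p = 0.991) with and 1.30 (SE 0.14 and edgeR adjusted p = 0.000333) without control 2. Adamts4, an aggrecanase, had 74.8, 171 and 90.7 CPM in controls and 117, 103 and 118 CPM in knockouts (log2 fold change 0.00 with and 0.41 without control 2, edgeR adjusted p = 0.997 and 0.0120). Adamts5, an aggrecanase that neighbours Adamts1 on chromosome 16, had 7.64, 116 and 15.1 CPM in controls and 24.8, 35.0 and 17.5 CPM in knockouts (log2 fold change -0.84 with and 1.15 without control 2, edgeR adjusted p = 0.581 and 0.0353).

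The microfibril-associated Adamts10 had 23.9, 57.5 and 25.7 CPM in controls and 43.0, 42.4 and 47.0 CPM in knockouts. Its log2 fold change reached 0.31 (edgeR adjusted p = 0.565) with and 0.80 (SE 0.08 and edgeR adjusted p = 0.000240) without control 2. Its relative Adamts6 had 5.69, 30.5 and 6.03 CPM in controls and 11, 10.9 and 9.36 CPM in knockouts (log2 fold change -0.43 with and 0.80 without control 2, edgeR adjusted p = 0.683 and 0.00185). Both thus lay between controls 1 and 3 and control 2. Of the procollagen N-propeptidase genes, which were not tested against each other, Adamts14 had 9.01, 57.7 and 13.8 CPM in controls and 23.4, 16.6 and 16.8 CPM in knockouts (log2 fold change -0.50 with and 0.70 without control 2, edgeR adjusted p = 0.638 and 0.0392). Adamts2 had 12.96, 239.7 and 19.1 CPM in controls and 13.7, 5.13 and 1.84 CPM in knockouts, at 2.87% of control 2, and did not pass edgeR's test in either fit (log2 fold change -3.71 and -1.24, edgeR adjusted p = 0.112 and 0.149). Adamts7 and Adamts12, which cut cartilage oligomeric matrix protein, and Adamts9, a versican-cutting protease, did not pass edgeR's test in either fit; their levels outside control 2 were 56.1 to 100.2, 11.9 to 27.5 and 35.8 to 50.7 CPM. Adamts15, the most abundant Adamts gene below the filter, had 2.56 CPM in control 2 and at most 0.274 CPM elsewhere.

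**Figure D3:**
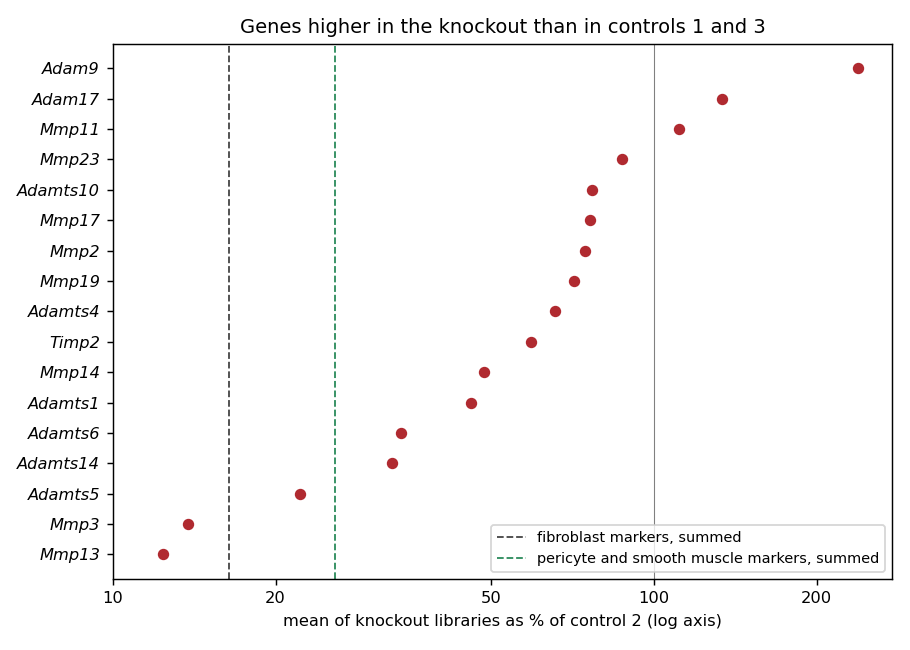
Mean CPM of the 3 knockout libraries as a percent of control 2 (log axis) for each member with a mean of at least 5 CPM that was higher in the knockouts without control 2, where dashed lines mark the summed fibroblast markers (16.4%) and the summed pericyte and smooth muscle markers (25.8%). Mmp13 (12.4%) and Mmp3 (13.8%) lie left of both lines, whereas Mmp2 (74.6%), Mmp23 (87.4%) and Adam9 (238%) lie right of them. The fibroblast line leans on Col1a1, the most abundant gene of its sum.

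Markers of fibroblasts and mural cells were also high in control 2. Across the fibroblast list, 9 of 10 genes were higher in control 2 than in controls 1 and 3, as were 10 of 11 pericyte and smooth muscle genes. The most abundant of them were Col1a1 with 214, 5489 and 628 CPM in controls and 235, 104 and 110.4 CPM in knockouts, and Acta2 with 379, 3049 and 462 CPM in controls and 652, 1131 and 522 CPM in knockouts. Without control 2, 4 of 9 tested fibroblast markers rose in the knockouts (Dcn, Lum, Pdgfra and Fbln1) and Col1a1 fell, while 3 of 11 pericyte and smooth muscle markers rose and 1 fell, against 25.5% of all genes that rose and 24.8% that fell. All 10 endothelial markers fell in both fits, among them Cdh5, the gene of VE-cadherin, with 4693, 2306 and 4957 CPM in controls and 1299, 1104 and 1406 CPM in knockouts. The knockout mean was 16.4% of control 2 for the summed fibroblast markers and 25.8% for the pericyte and smooth muscle markers. Col1a1 made up 5489 of the 13181 CPM of the fibroblast sum in control 2, so that sum leans on 1 gene. For members it was 2.87% for Adamts2, 12.4% for Mmp13, 13.8% for Mmp3, 13.9% for Timp1, 22.2% for Adamts5, 48.6% for Mmp14, 74.6% for Mmp2 and 87.4% for Mmp23. Summed microglia and macrophage markers were 2.06 to 4.17 CPM in all libraries, with C1qa, C1qb and Tyrobp at 0 throughout. The part of these cell types in the changes was not tested.

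Of the 3 Timp genes tested with all libraries, 0 were called by edgeR (0 at an unadjusted p under 0.05) or by DESeq2, and without control 2 the call went to Timp2 and Timp4. Timp1 (chromosome X, 20870166 to 20874735, plus strand), which inhibits most secreted MMPs, had 72.7, 840.2 and 119 CPM in controls and 156, 101 and 92.2 CPM in knockouts. Controls 1 and 3 overlapped the knockouts, and the log2 fold change was -1.56 (SE 0.95 and edgeR adjusted p = 0.278) with and 0.25 (SE 0.27 and edgeR adjusted p = 0.480) without control 2. Timp2 (chromosome 11, 118301069 to 118355740, minus strand), which both inhibits MMPs and takes part in the activation of MMP2 by MMP14, had 940, 2166 and 1038 CPM in controls and 1426, 1250 and 1181 CPM in knockouts. It rose without control 2 by a log2 fold change of 0.34 (SE 0.09 and edgeR adjusted p = 0.0185) and had -0.10 (SE 0.34 and edgeR adjusted p = 0.850) with it. Timp3 (chromosome 10, 86300372 to 86349506, plus strand), a matrix-bound inhibitor that also blocks ADAM17, had 115, 521 and 157 CPM in controls and 301, 216 and 156 CPM in knockouts. It did not pass edgeR's test in either fit (log2 fold change -0.23 and 0.69, edgeR adjusted p = 0.809 and 0.0686). Timp4 (chromosome 6, 115241892 to 115252205, minus strand), the inhibitor known from heart and brain, had 0, 2 and 3 counts in controls and 12, 25 and 7 in knockouts, too few for the test with all libraries. Summed counts per library size were 8.84 times higher in knockouts than in all controls (95% interval 3.52 to 28.6), and without control 2 it passed (9.87 times, 3.16 to 49.7, edgeR adjusted p = 0.0367).

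Timp1, Timp3 and Timp4 each lie within a synapsin gene, Syn1, Syn3 and Syn2, on the opposite strand. Exons of Syn3 cover 21.3% of those of Timp3, but Syn3 had 0.436 to 1.11 CPM. Per kilobase of exon, the order in controls 1 and 3 was Timp2 (254 CPM), Timp1 (108), Timp3 (16.7) and Timp4 (0.0140), and in knockouts it was Timp2 (330.0), Timp1 (131), Timp3 (27.6) and Timp4 (0.136). Timp2 was thus the most abundant inhibitor in every library by CPM and Timp4 the least. The levels of Timp1 and Timp3 are not ordered by CPM in the same way in each library, since Timp3 was lower than Timp1 in control 2 alone.

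**Figure D4:**
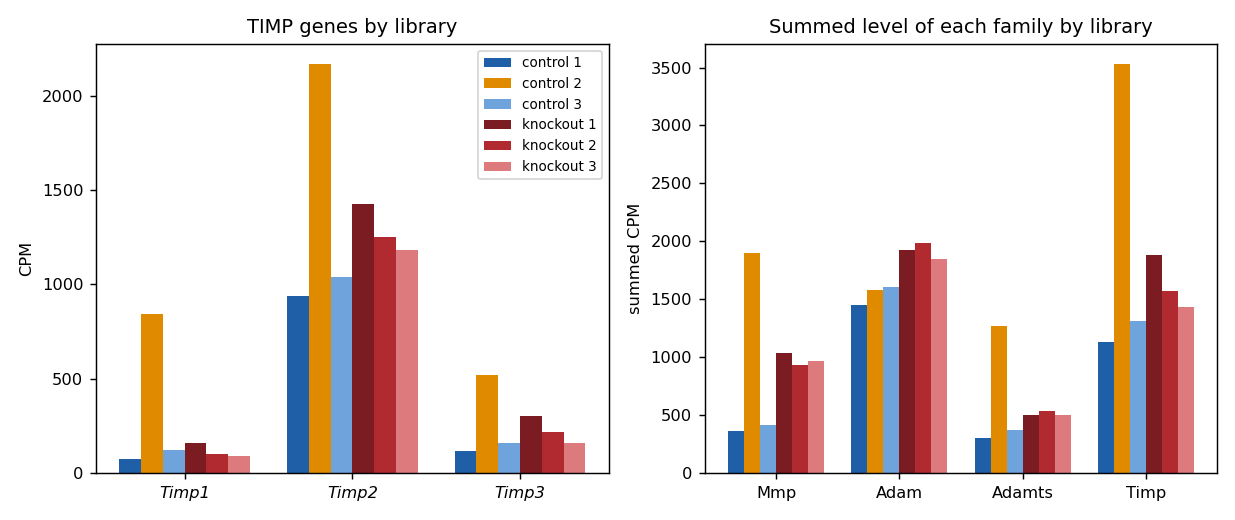
Left, CPM of Timp1, Timp2 and Timp3 in each library. Right, CPM summed over the Mmp, Adam, Adamts and Timp genes with at least 10 counts in each library. Control 2 (orange) is highest for Timp1 (840.2 CPM) and for the Mmp, Adamts and Timp sums, and the 3 knockouts (1851 to 1984 CPM) are highest for the Adam sum.

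Summed over the family, Mmp transcripts were 359, 1901 and 416 CPM in controls and 1031, 929 and 963 CPM in knockouts. Summed Timp transcripts were 1127, 3527 and 1314 CPM in controls and 1884, 1570 and 1430 CPM in knockouts. The ratio of the Mmp sum to the Timp sum was 0.318, 0.539 and 0.317 in controls and 0.547, 0.592 and 0.674 in knockouts. Every knockout lay above every control, with control 2 just below the lowest knockout. The place of control 2 depends on Mmp2, with 138, 714.9 and 149.1 CPM in controls and 560.4, 491.3 and 548.5 CPM in knockouts. With Mmp2 left out of the Mmp sum, control 2 would lie above every knockout, while controls 1 and 3 would stay below. Summed Adam transcripts were 1454, 1578 and 1604 CPM in controls and 1926, 1984 and 1851 CPM in knockouts, again without overlap. Adam9 was the Adam gene with the largest difference in CPM between the group means. Its mean rose from 309.6 to 919.4 CPM, by more than the mean Adam sum, which went from 1546 to 1920 CPM. The sum of the other Adam genes was thus lower in every knockout than in every control. Summed Adamts transcripts were 298, 1265 and 373 CPM in controls and 504, 536 and 501 CPM in knockouts. These sums follow their most abundant genes, and they are of transcripts, not of protease activity.

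Among 16 tested regulators of protease activity (activating proteases, membrane inhibitors and trafficking partners), 5 rose and 3 fell with all libraries, and 9 rose and 6 fell without control 2. For this list and those that follow, the shares of all genes were 13.1% higher and 11.7% lower with all libraries, and 25.5% and 24.8% without control 2. The median log2 fold change of the list was 0.18 with and 0.30 without control 2, against 0.00 for all genes in both fits. Rhbdf2, a rhomboid-like partner that ADAM17 needs to reach the cell surface, rose from 55.3, 41.4 and 56.3 CPM to 105, 104 and 113 CPM (log2 fold change 1.07, SE 0.13 and edgeR adjusted p = 0.00479, and 0.91 without control 2). Bsg, the MMP inducer basigin, rose from 472, 595 and 508 CPM to 999.8, 1047 and 893 CPM (log2 fold change 0.90, SE 0.12 and edgeR adjusted p = 0.00631, and 0.97 without control 2). Tspan14, a tetraspanin partner of ADAM10, fell from 200.5, 131 and 196 CPM to 87.4, 87.6 and 93.0 CPM (log2 fold change -0.98, SE 0.17 and edgeR adjusted p = 0.0129, and -1.19 without control 2), while Adam10 itself was level. For each of these 3 genes, chosen for large changes, the groups did not overlap. Of all 13901 tested genes, 3477 had every knockout above every control and 2961 every control above every knockout, so this is common here.

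The ADAMTS-like genes, which resemble ADAMTS proteases without the catalytic part, gave 0 calls in 6 tested genes with all libraries by edgeR (1 rose and 1 fell at an unadjusted p under 0.05), and 2 of 7 rose without control 2. Their median log2 fold change was -1.17 with and 0.64 without it. Of the astacin proteases, Tll1, a tolloid-like procollagen C-proteinase, rose from 6.27, 20.04 and 5.97 CPM to 54.7, 86.8 and 49.0 CPM (log2 fold change 2.56, SE 0.56 and edgeR adjusted p = 0.0252, and 3.34 without control 2), 1 of 2 tested, and 2 of 3 rose and 1 fell without control 2. Among 31 ligands, receptors and adhesion molecules known to be shed, 6 rose and 9 fell, and 12 rose and 11 fell without control 2, with medians of -0.17 and -0.15. Pecam1 (log2 fold change -3.40, SE 0.47 and edgeR adjusted p = 0.00665) and the Kit ligand gene Kitl (-2.29, SE 0.12 and edgeR adjusted p = 0.000711) fell, and Il6ra, the IL-6 receptor gene, whose product is shed by ADAM10 and ADAM17, rose (3.08, SE 0.15 and edgeR adjusted p = 0.000506). Without control 2 their log2 fold changes were -3.77, -2.25 and 3.15, and each passed. Pecam1 encodes CD31, on which the cells were sorted. Of 19 tested matrix substrates 1 rose and 4 fell, and of 20 without control 2, 5 rose and 10 fell, with medians of -0.59 and -0.35. The 3 named by size were Vwf, the substrate of ADAMTS13 (-4.43, SE 0.47 and edgeR adjusted p = 0.00346), Tfpi2, a protease inhibitor of the matrix (-1.31, SE 0.20 and edgeR adjusted p = 0.00852), and Col4a2, a basement membrane collagen (-0.89, SE 0.15 and edgeR adjusted p = 0.0106), and all 3 fell. Without control 2 they had -4.17, -1.42 and -1.03, and each passed.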

How the data were processed

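Libraries of polyadenylated RNA from sorted cells were made, per the labels' protocols, with an unstranded or a stranded TruSeq kit, with no kit named for a given library. The authors deposited raw counts per Ensembl gene. The submitters' processing notes name FastQC 0.11.5, STAR 2.7.6a and the build GRCm38. No counting program or strand setting is given in the sources used here, so reads of genes overlapping on opposite strands may be merged. Symbols, positions and exons came from GENCODE M21. The 147 rows without a symbol held at most 0.00608% of a library.

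Libraries held 17274639 to 19410458 counts. The whole table was tested in R 4.3.3 with edgeR 4.0.16 (filterByExpr, TMM, quasi-likelihood F tests, two-sided, no covariate, Benjamini-Hochberg adjustment over all tested genes, called at an adjusted p under 0.05), for 3 against 3 libraries and again without control 2. The SE of a log2 fold change is its size over the square root of F. Adam3, Mmp1a and Timp4, with 1 to 5 summed counts in a group, are given as count ratios with exact 95% intervals, which cover counting error only. The test was tested on simulated counts, which held no library that stands apart as control 2 does. The members, gene lists, tests and alternatives were chosen with earlier results of these data known. Named were all Timp genes, members called in either fit with a mean of at least 1 CPM, uncalled members of at least 20 CPM, and the most abundant of each class below the filter; the text also names other members of low level, chosen after their values were seen. From each other list came the 3 called genes of at least 5 CPM with the largest change, and from the marker lists the most abundant genes. Alternatives were RLE scaling, library size only, DESeq2 1.42.0, other filters, a replicate block, leaving out libraries and an adjusted p under 0.01.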

Additional observations from a re-analysis of the deposited data

How the results depend on the processing

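With the 6 libraries, RLE scaling, library size only, DESeq2 and both other filters on low counts left the counts of called members within 1.5 times. DESeq2 also called Adam19, Adam23 and Mmp10 lower (DESeq2 adjusted p = 0.00370, 0.0413 and 0.0235) and gave no adjusted p for Adamts2, Mmp3, Mmp13, Mmp19 and Mmp23. An adjusted p under 0.01 gave 2 members higher and 3 lower, and over all genes 732 higher and 524 lower. Leaving out 1 library gave 2 to 21 members higher and 3 to 8 lower, and over all genes 803 to 3617 higher and 548 to 3511 lower; the highest of these counts came without control 2. The labels do not say that replicate numbers pair the libraries, and the same-numbered deviations correlated at -0.19, 0.18 and 0.30. These values cannot decide on pairing, because control 2 set the deviations of its group (-0.93 with control 1 and -0.89 with control 3). With the replicate block, 2 members were higher, and 1038 genes were higher and 806 lower. Adam17, Mmp9, Mmp1a and Mmp25 lost their calls under it (edgeR adjusted p = 0.0722, 0.0677, 0.0545 and 0.0549). Under library size only, 66.4% of calls over all genes were higher, against 52.8% with TMM.

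Without control 2, 7 members turned from a negative to a positive log2 fold change that passed the test. All 7 were higher in control 2 than in every other library, so leaving it out favours such a turn. The share of all genes that turned in this way was not computed, while 25.5% of all tested genes rose without control 2. The count therefore only describes these members. With 1 library left out in turn, their log2 fold changes ran from -1.93 to 1.73 for Mmp3, -2.11 to 0.75 for Mmp13, -0.37 to 0.97 for Mmp14, -1.34 to 1.15 for Adamts5, -0.81 to 0.80 for Adamts6, -0.91 to 0.70 for Adamts14 and -0.32 to 0.34 for Timp2. Of the 29 calls made without control 2, 22 held under the 5 other settings and with each of the 5 remaining libraries left out; Adam1a, Adam11, Adamts4, Adamts5, Adamts14, Timp2 and Timp4 lost the call in at least 1 (edgeR adjusted p up to 0.219). The spread that control 2 adds to its group limits the fit with all libraries, and members at low CPM rest on few counts.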
